A study of Mus musculus with 11 samples.

Results

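Receptors and targets of glucocorticoids were followed mouse by mouse in hepatic sinusoidal endothelial cells (ECs), comparing mice raised germ-free (GF) with conventionally raised mice (CONV-R). They were 10 of the 29307 genes in the count table, with the symbols *Nr3c1*, *Nr3c2*, *Hsd11b1*, *Fkbp5*, *Zbtb16*, *Map3k6*, *8430408G22Rik*, *Sgk1*, *Errfi1* and *Ddit4*. The set comprised the receptors, a steroid-activating enzyme and well-known targets, and it was chosen by looking at their Log2FC between GF and CONV-R mice in these same libraries. The group differences of these 10 genes are therefore a description, and no test is given for them.

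The RNA came from male C57BL/6J mice aged 10 to 12 weeks, 6 of them CONV-R and 5 GF, with 1 library per mouse. CONV-R mice were specific-pathogen-free animals from the same colonies as the GF mice, which lived in sterile isolators, and all mice ate the same autoclaved diet. ECs were enriched magnetically for CD146 and then sorted for CD31+ CD105+ CD146+ cells, and their RNA was amplified across the whole transcriptome before library preparation. Fewer sorted cells and less RNA were obtained per GF liver, which cannot be told apart from housing in any comparison here. The labels name no steroid or other agent given to the mice, and blood glucocorticoid was not analysed here.

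Glucocorticoids such as corticosterone diffuse into cells and bind the glucocorticoid receptor, which chaperones hold ready in the cytosol. The bound receptor moves to the nucleus, where it raises transcription of genes such as *Fkbp5* and *Tsc22d3* and lowers that of many inflammatory genes. In the liver this axis is best known for control of gluconeogenesis, and in ECs for restraint of leukocyte adhesion.

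Libraries held 7242717 to 16164588 counts, and values are given as CPM, counts scaled to a common library size after TMM normalization. Summed CPM of 10 sinusoidal EC markers spanned 22393 to 28747 in CONV-R and 22407 to 31320 in GF libraries, with all 10 detected and none called by edgeR, although 6 had an unadjusted p under 0.05. DESeq2 and voom also called 0, but edgeR called 5 higher in GF without GF replicate 5, 2 with a replicate block, and 1 with no filter or without CONV-R replicate 1. Summed CPM of 10 Kupffer cell and macrophage markers spanned 86.0 to 222 in CONV-R and 197 to 931 in GF mice, with 7 of 10 called higher in GF (4.8% of all 12905 tested genes were) and the 931 in GF replicate 6, above 357 in the next mouse. Without GF replicate 6, 3 of these 10 were called higher, and without CONV-R replicate 2, 4 or 5, 4 were. Cholangiocyte marker sums were 0.615 to 9.21 and 13.7 to 36.8 CPM, B cell marker sums 17.1 to 36.3 and 8.33 to 17.4 CPM, and hepatocyte marker sums 26.0 to 56.3 and 31.2 to 74.8 CPM, in CONV-R and GF mice respectively. Of the cholangiocyte markers 2 were tested and 1 was called higher in GF (3 with no filter), and the sums did not overlap between groups. Stellate cell sums (4.66 to 11.9 and 2.19 to 12.7 CPM) and T, NK and innate lymphoid cell sums (6.36 to 10.8 and 5.29 to 8.6 CPM) overlapped. No marker of any of these lists was at 0 in all libraries. CONV-R replicate 3 stood apart from the other CONV-R mice in several genes of the axis described below, and some values below are given without it or without GF replicate 6. In such bulk samples, fewer cells of a type and less RNA per cell cannot be told apart.

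Levels of both receptors overlapped between the groups. *Nr3c1*, which encodes the glucocorticoid receptor (chromosome 18, 39410545 to 39519421, minus strand of GRCm38), spanned 323 to 367 CPM in CONV-R mice (median 348). GF replicates 1, 2, 4, 5 and 6 had 320, 343, 410, 302 and 357 CPM. The groups overlapped, with the highest and the lowest mouse both being GF, and the Log2FC was 0.00 (standard error 0.10).

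*Nr3c2* encodes the mineralocorticoid receptor (chromosome 8, 76899442 to 77245012, plus strand), which also binds corticosterone. It spanned 25.3 to 36.2 CPM in CONV-R mice (median 31.1), and GF replicates 1, 2, 4, 5 and 6 had 37.4, 29.1, 34.4, 29.5 and 44.4 CPM. The ranges overlapped and the Log2FC was 0.17 (standard error 0.14), or 0.07 without GF replicate 6, the highest mouse. Per kilobase of merged exons, *Nr3c1* was 9.45 ± 0.884 times (SD, n = 6) the level of *Nr3c2* in CONV-R and 8.52 ± 1.51 times (SD, n = 5) in GF mice, and the ratios overlapped.

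*Hsd11b1* encodes the enzyme that regenerates active corticosterone from its inert form and is abundant in hepatocytes. In these sorted cells it gave 26 counts over the 6 CONV-R libraries and 5 over the 5 GF libraries, with no library above 9, and it was the only one of the 10 genes that failed the filter on low counts. GF replicates 4, 5 and 6 and CONV-R replicate 1 had 0 counts, which allows up to 0.286, 0.397, 0.407 and 0.233 CPM if 3 counts are taken as the limit of a count of 0. A difference between the groups was not resolvable at this depth.

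**Figure D1:**
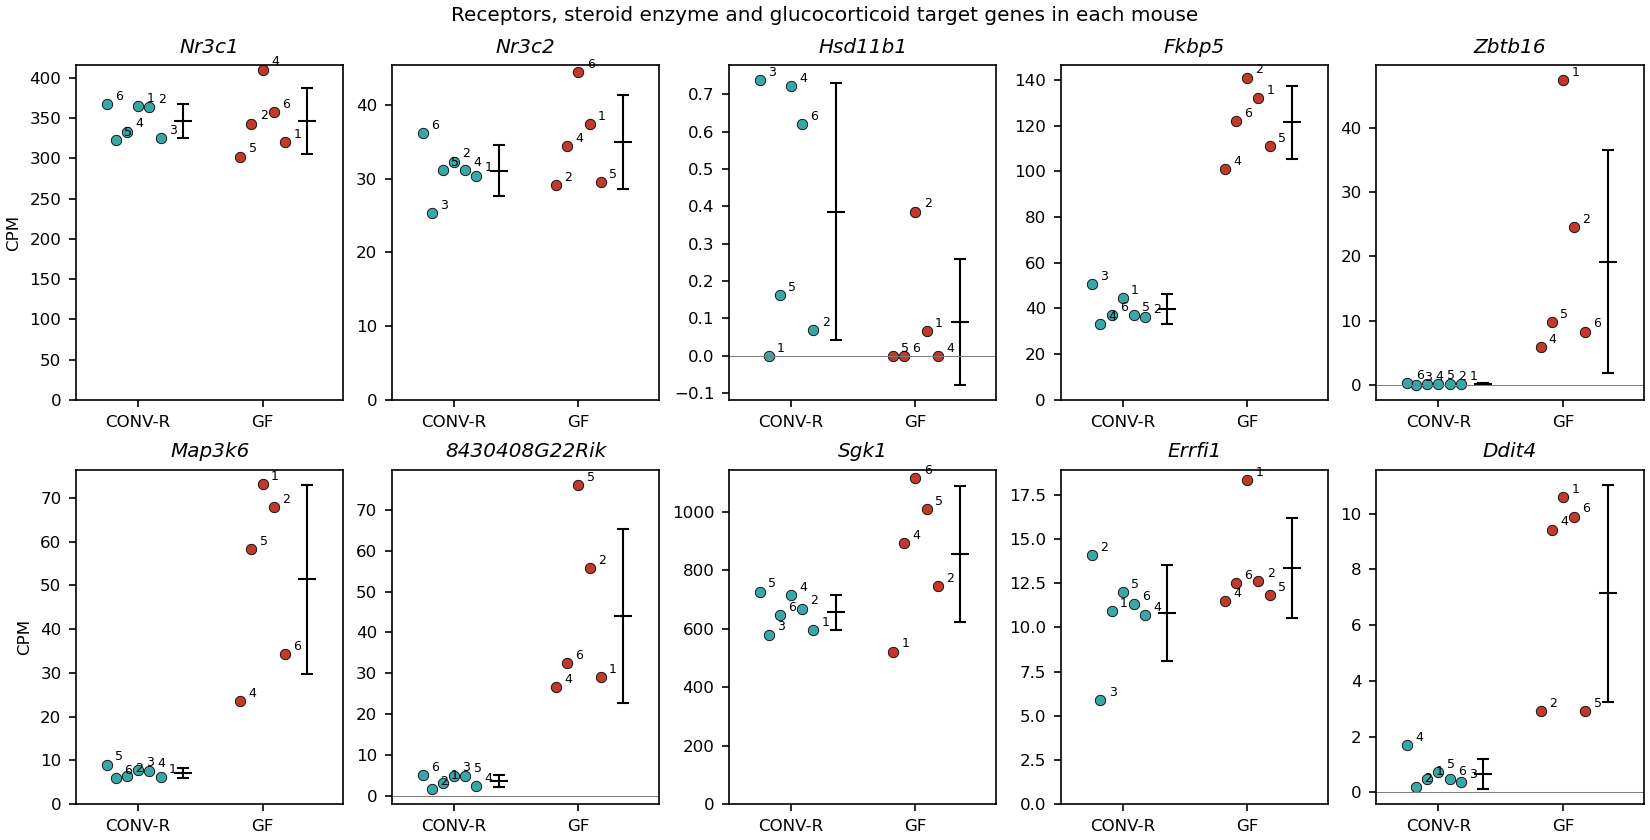
CPM on a linear axis for each of the 10 genes, with CONV-R mice in turquoise and GF mice in red, the replicate number beside each point, and the group mean with its SD as a black bar. *Nr3c1* and *Nr3c2* overlap between groups, whereas all GF points of *Fkbp5*, *Zbtb16*, *Map3k6*, *8430408G22Rik* and *Ddit4* lie above all CONV-R points.

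Of the 7 targets, 5 were higher in every GF mouse than in every CONV-R mouse, and *Sgk1* and *Errfi1* were not. The 5 were *Fkbp5*, *Zbtb16*, *Map3k6*, *8430408G22Rik* and *Ddit4*. Of all 12905 genes that passed the filter, 3.22% had every GF mouse above every CONV-R mouse. Nothing is read from this share for the 10 genes, which were selected on this contrast, and *Zbtb16* and *Ddit4* passed the filter only through their GF libraries.

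*Fkbp5* encodes a co-chaperone that lowers the affinity of the receptor for hormone and closes a feedback loop (chromosome 17, 28399094 to 28517527, minus strand). In CONV-R mice it spanned 33.3 to 50.7 CPM (median 37.0). GF replicates 1, 2, 4, 5 and 6 had 132, 141, 101, 111 and 122 CPM. The lowest GF mouse was thus above the highest CONV-R mouse, replicate 3, and the groups did not overlap. The ratio of GF to CONV-R was 3.06 (Log2FC 1.61, standard error 0.13), and the Log2FC stayed within 1.55 to 1.69 when any 1 mouse was left out.

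*Zbtb16* encodes the transcription factor PLZF (chromosome 9, 48654297 to 48836222, minus strand). The 6 CONV-R libraries together held 9 counts, at 0 to 0.233 CPM with a median of 0.108, and the 5 GF libraries held 1180. GF replicates 1, 2, 4, 5 and 6 had 47.4, 24.6, 5.81, 9.78 and 8.27 CPM, an 8.15-fold range within the group. Every GF mouse was above every CONV-R mouse, and GF replicates 1 and 2 were above the other GF mice. The fitted Log2FC of 7.19 (standard error 0.65) was the highest of the 12905 tested genes, but it rests on only 9 CONV-R counts. It was 6.52 without GF replicate 1 and 4.19 in the authors' normalized values.

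*Map3k6* encodes a stress-responsive MAP kinase kinase kinase (chromosome 4, 133240818 to 133252929, plus strand). CONV-R mice spanned 5.98 to 9.05 CPM (median 6.99), against 73.1, 67.8, 23.5, 58.2 and 34.3 CPM in GF replicates 1, 2, 4, 5 and 6. The groups were far apart, with GF replicate 4 the lowest of its group as it was for *Fkbp5* and *Zbtb16*. The ratio was 7.19 (Log2FC 2.85, standard error 0.25).

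*8430408G22Rik*, named *Depp1* in newer annotation and described as a progesterone- and FOXO-induced gene, is a short gene on chromosome 6 (116650609 to 116652794, plus strand). It spanned 1.64 to 5.12 CPM in CONV-R mice (median 3.97) and had 29.0, 55.7, 26.7, 76.2 and 32.4 CPM in GF replicates 1, 2, 4, 5 and 6. All GF mice were higher, but here replicate 5 and not replicate 1 led. The ratio was 12.1 (Log2FC 3.60, standard error 0.33).

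*Ddit4* encodes REDD1, an inhibitor of mTORC1 signalling (chromosome 10, 59949669 to 59951834, minus strand). The 6 CONV-R libraries held 48 counts, spanning 0.205 to 1.69 CPM with a median of 0.466, and GF replicates 1, 2, 4, 5 and 6 had 10.6, 2.9, 9.43, 2.91 and 9.9 CPM. The GF mice fell into a lower pair (replicates 2 and 5) and a higher group of 3, all above CONV-R replicate 4, the highest CONV-R mouse. The ratio was 10.8 (Log2FC 3.43, standard error 0.51), and the Log2FC was 3.97 without CONV-R replicate 4.

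*Sgk1*, which encodes a serine/threonine kinase that acts on ion channels and FOXO factors, was the most abundant of the 10 genes per exon length (chromosome 10, 21882184 to 21999903, plus strand). It is shown with its sequence because, among the genes described here, its promoter windows held the closest match to a glucocorticoid response element. The element is a palindrome of the arms AGAACA and TGTTCT separated by 3 bases of any kind, and it was searched on both strands in RefSeq promoter windows of GRCm38.p6 (250 bases before to 50 after each start). The stretch chr10:21993661-21993755 on the plus strand lies in a *Sgk1* intron of the longer transcripts and upstream of a shorter one, with the full element in capitals, 189 bases before that start.
Sgk1: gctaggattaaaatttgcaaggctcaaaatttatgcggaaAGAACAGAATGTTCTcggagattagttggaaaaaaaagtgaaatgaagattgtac
This element matched at all 12 fixed letters. Such a match occurred in 3 of 32851 windows of all genes (0.00913%), the others belonging to *Acnat2* and *Gm35041*.

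Sites with at most 2 mismatches were found for 1 of the 8 genes with windows, *Sgk1*, against 2.1% of 27025 genes and 1.84% of windows. *Sgk1* had 6 of the 14 windows of these genes and so more chances of a match than a gene with 1 window. The best sites of 5 other targets are set beside each other here to show how far each was from the palindrome, with letters that match it in capitals and the spacer in lower case.
Map3k6: gGcACAggcTGTTCc
Errfi1: AaAACtcggTGTcCT
8430408G22Rik: AcAgCAcatcGTcCT
Ddit4: AGgAgAgaacGTTgc
Fkbp5: tGAAgAggcgGagaT
They had 3, 3, 4, 5 and 6 mismatches, and windows of all genes with a site at least as close made up 14.5%, 14.5%, 57.0%, 94.0% and 99.9% of windows. Ddit4 and Fkbp5 had several equally close sites, of which 1 is printed for each. A single arm, TGTTCT on either strand, occurred in 19.0% of all windows and in 3 of the 14 windows of these genes, all 3 of *Sgk1*, and 21.3% of all genes had such a window, so that single arms do not set *Sgk1* apart. No match says only that these letters are not in this window.

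The expression of *Sgk1* itself overlapped between groups. CONV-R mice spanned 580 to 727 CPM (median 658), and GF replicates 1, 2, 4, 5 and 6 had 522, 746, 892, 1010 and 1115 CPM. GF replicate 1 was below all CONV-R mice and the other GF mice were above them all. The Log2FC was 0.39 (standard error 0.15), 0.52 without GF replicate 1 and 0.27 without GF replicate 6.

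*Errfi1* encodes a feedback inhibitor of the EGF receptor (chromosome 4, 150853919 to 150868892, plus strand). It spanned 5.89 to 14.1 CPM in CONV-R mice (median 11.1) and had 18.3, 12.6, 11.5, 11.8 and 12.5 CPM in GF replicates 1, 2, 4, 5 and 6. The groups overlapped, with CONV-R replicate 3 the lowest and GF replicate 1 the highest mouse. The Log2FC of 0.30 (standard error 0.21) was 0.15 without GF replicate 1 and 0.18 without CONV-R replicate 3.

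**Figure D2:**
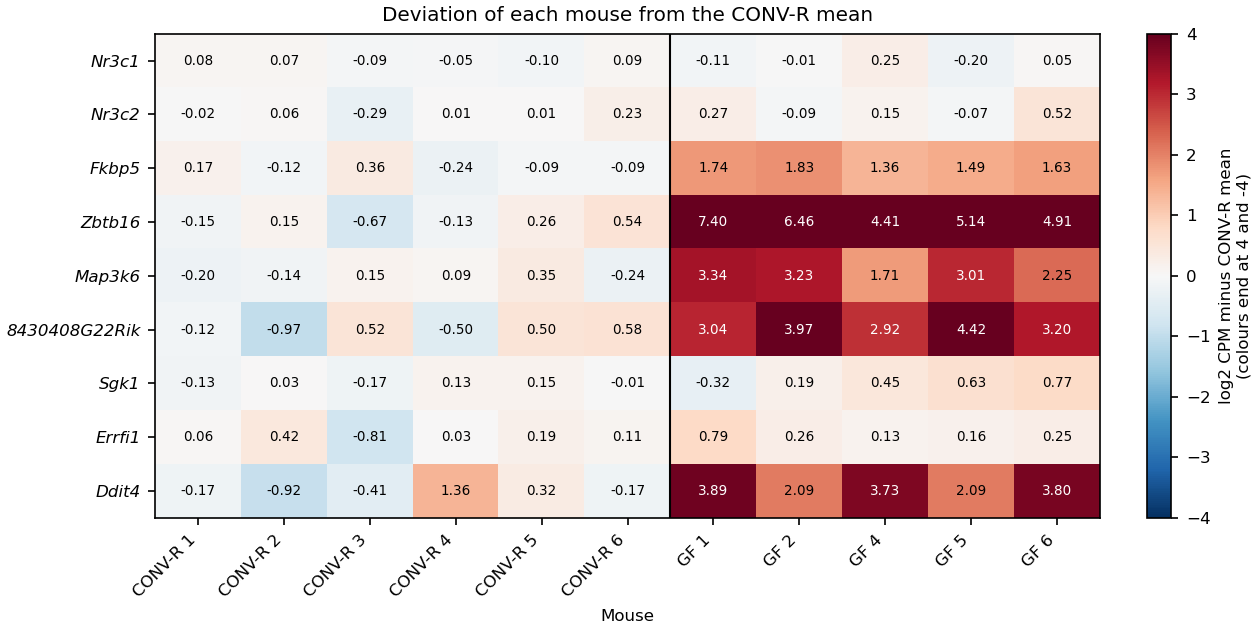
Difference in log2 CPM of each mouse (columns) from the CONV-R mean for the 9 tested genes (rows), with red above and blue below the mean. GF replicate 1 has 7.40 for *Zbtb16* and 3.89 for *Ddit4* but -0.32 for *Sgk1*, and *Nr3c1* stays between -0.20 and 0.25 in all mice.

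The GF mice did not keep a single order across the targets. Replicate 4 was the lowest GF mouse for *Fkbp5*, *Zbtb16*, *Map3k6*, *8430408G22Rik* and *Errfi1*. *Zbtb16* and *Map3k6* shared the full order 1, 2, 5, 6 and 4, from the highest down. For *Sgk1* the order was 6, 5, 4, 2 and 1, so that the mouse with the most *Zbtb16* had the least *Sgk1*. GF replicate 6, with the highest macrophage marker sum, was first for *Nr3c2* and *Sgk1* and last but 1 for *Zbtb16* and *Map3k6*, and without it the Log2FC was 1.61 for *Fkbp5*, 7.38 for *Zbtb16*, 2.96 for *Map3k6*, 3.69 for *8430408G22Rik* and 3.29 for *Ddit4*.

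Within the 6 CONV-R mice, the relation of *Fkbp5* to each of the 8 other tested genes was examined on log2 CPM, since the choice of the genes used only the difference between groups. *Zbtb16* and *Ddit4* had only 9 and 48 counts in these libraries, with 0 to 3 counts of *Zbtb16* and 3 to 21 of *Ddit4* per library. None of the 8 relations had an adjusted p under 0.05, nor did any of the 6 left without these genes, and 1 had an unadjusted p under 0.05. That relation was with *Sgk1* (Pearson's r = -0.891, two-sided exact permutation p = 0.0167, adjusted p = 0.133 over 8 relations and 0.1 over 6, n = 6), but Spearman's rho was -0.657 (exact p = 0.175, adjusted p = 0.663) and r was -0.393 without the 2 mice farthest from the median of *Fkbp5*. For *Nr3c1*, r was -0.125 (exact permutation p = 0.754, adjusted p = 0.862, n = 6), with a rho of -0.2 (exact p = 0.714, adjusted p = 0.714) and an r of 0.321 without those mice. The smallest p this design allows is 0.00139 for Pearson's r, and it is larger for Spearman's rho.

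Levels can be compared between genes only per exon length. In CONV-R mice *Sgk1* (134 CPM per kilobase) and *Nr3c1* (45.1) led, followed by *Nr3c2* (4.8), *Fkbp5* (4.2), *Errfi1* (3.03), *8430408G22Rik* (2.69) and *Map3k6* (1.56), and the ranges of neighbours from *Nr3c2* down to *Map3k6* overlapped. *Ddit4* was at 0.372 CPM per kilobase, and *Hsd11b1* and *Zbtb16* were near 0. In GF mice *Sgk1* (175) and *Nr3c1* (45.1) were still highest, but *8430408G22Rik* (32.4), *Fkbp5* (12.8) and *Map3k6* (11.2) came next, above *Nr3c2* (5.4), *Ddit4* (4.07), *Errfi1* (3.72) and *Zbtb16*. Among these GF neighbours, the ranges did not overlap between *Sgk1* and *Nr3c1* or between *8430408G22Rik* and *Fkbp5*, and they overlapped between the others.

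**Figure D3:**
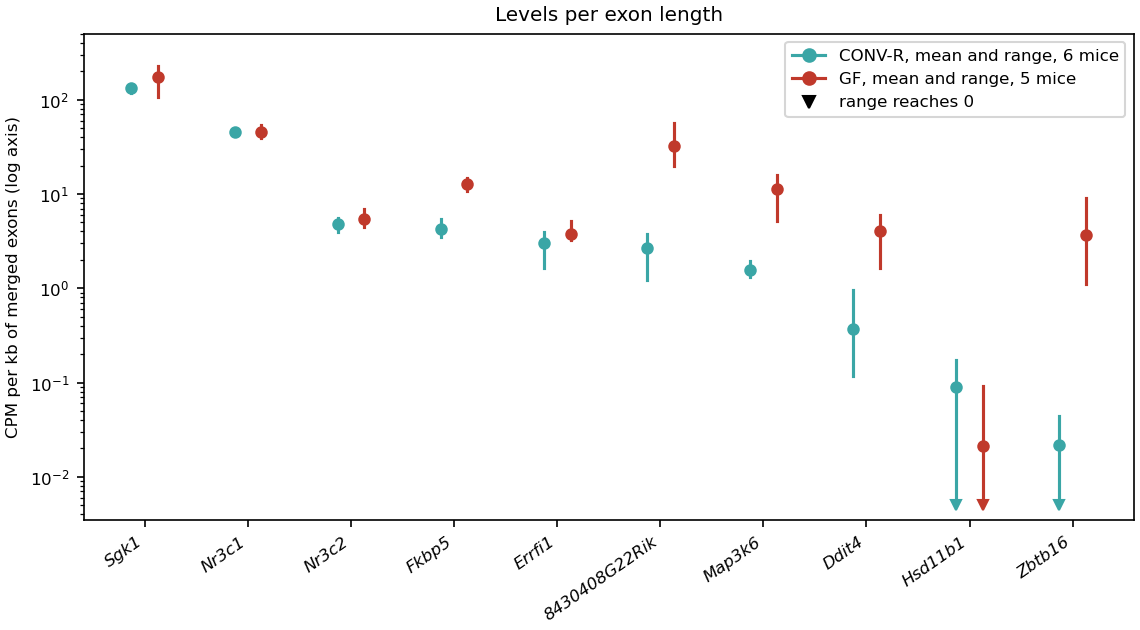
Level per kilobase of merged exons on a log axis for the 10 genes, ordered by the CONV-R mean, with points for group means, lines from the lowest to the highest mouse, and triangles where the range reaches 0. *8430408G22Rik* moves from 2.69 to 32.4 and *Nr3c1* stays at 45.1.

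Genes with the profile nearest to *Fkbp5* over the 11 libraries were found by the root mean square difference of centred log2 CPM. This distance was 0.90 for the median gene. It includes the difference between GF and CONV-R mice, on which *Fkbp5* and the other genes compared below were chosen. Nothing is therefore read from the contrast with the median gene, for *Fkbp5* or for the others. Genes with a Log2FC like that of *Fkbp5* (1.61) are near by construction, and likeness within groups was not tested. The nearest were *Sgms1*, sphingomyelin synthase (0.18), *S1pr1*, a sphingosine-1-phosphate receptor (0.22), *Acer2*, an alkaline ceramidase (0.22), *Klf9*, a glucocorticoid-induced transcription factor (0.26), and *Gpr143* (0.26). *S1pr1* had 146 ± 8.03 CPM in CONV-R (SD, n = 6) and 482 ± 74.1 CPM in GF mice (SD, n = 5), and *Sgms1* had a Log2FC of 1.60. *Acer2* had 520 ± 50.2 and 1368 ± 256 CPM. For *Zbtb16* the nearest gene was *Fam107a*, a stress-responsive gene, at 1.02, against 2.96 for the median gene (0.182 ± 0.335 and 6.85 ± 3.46 CPM). *Map3k6* was nearest to *Cyp1a1*, a classic aryl hydrocarbon receptor target, at 0.48, against a median of 1.47 (12.6 ± 4.51 and 67.8 ± 37.8 CPM). *8430408G22Rik* was nearest to *Mcf2l* (0.52, median 1.88), *Ddit4* to *2810029C07Rik* (0.69, median 1.78), *Sgk1* to *Msl3* (0.16, median 0.48), *Errfi1* to *Ndrg3* (0.13, median 0.51), *Nr3c2* to *Scamp1* (0.11, median 0.41) and *Nr3c1* to *Fem1c* (0.05, median 0.37).

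Other genes known to be induced by glucocorticoids were mostly higher in GF mice where they were called. Of 43 listed, 42 were in the table and 37 were tested, of which 15 rose, 1 fell and 21 did not pass at an adjusted p of 0.05 (edgeR, quasi-likelihood). Over all 12905 tested genes, 4.8% rose and 2.67% fell, the shares to hold beside this and the following counts. The lists were chosen with earlier results of these data known. Nothing is therefore read from a difference from these shares, nor from the list medians. The median Log2FC of the 37 was 0.74, against -0.01 over all tested genes. Without GF replicate 6, 15 rose and 0 fell, and without CONV-R replicate 3, 16 rose and 0 fell. The macrophage and cholangiocyte marker sums were also higher in GF mice, and their part in the list was not tested.

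*Tsc22d3*, which encodes the anti-inflammatory protein GILZ, spanned 43.0 to 57.1 CPM in CONV-R mice (median 48.8) and had 143, 114, 172, 134 and 186 CPM in GF replicates 1, 2, 4, 5 and 6. Its Log2FC was 1.59 (standard error 0.14, adjusted p = 2.22e-06, edgeR), with every GF mouse higher. *Klf9* spanned 21.7 to 34.8 CPM in CONV-R and had 109, 82.9, 93.1, 84.0 and 101 CPM in GF mice in that order, a Log2FC of 1.62 (standard error 0.14, adjusted p = 2.22e-06, edgeR). Both groups were again separate.

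*Per1*, a period gene of the clock that glucocorticoids also induce directly, spanned 1.96 to 14.4 CPM in CONV-R mice and had 117, 108, 66.0, 81.4 and 67.0 CPM in GF replicates 1, 2, 4, 5 and 6. Its Log2FC of 3.33 (standard error 0.33, adjusted p = 8.69e-06, edgeR) was the highest of the list. *Per2* rose by a Log2FC of 2.10 (adjusted p = 0.00088, edgeR), from 2.58 to 14.2 CPM in CONV-R mice to 22.9 to 50.7 CPM in GF mice. The transcription factor gene *Klf15* rose by 2.69 (adjusted p = 3.75e-05, edgeR) and the cell cycle inhibitor gene *Cdkn1a* by 2.47 (adjusted p = 0.000108, edgeR). *Glul*, glutamine synthetase, rose by 1.41 (adjusted p = 0.000178, edgeR), and *Dusp1*, a MAP kinase phosphatase, by 0.92 (adjusted p = 0.00019, edgeR), with all GF mice above all CONV-R mice in both. *Cd163*, a macrophage gene, was higher too (Log2FC 2.10, adjusted p = 0.00164, edgeR), at 38.5 CPM in GF replicate 6 and 7.8 CPM in GF replicate 5.

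The 1 gene that fell was *Anxa1*, annexin A1, a mediator of anti-inflammatory steroid action, from 42.6 ± 14.5 to 21.4 ± 10.4 CPM (Log2FC -0.99, adjusted p = 0.0346, edgeR). The groups overlapped, and the call was lost in 8 of 17 alternative settings. The most abundant genes that did not pass were *Aqp1*, a water channel (Log2FC -0.29), *Mertk*, a receptor for apoptotic cells (-0.13), *Foxo1* (0.11) and *Tgm2*, transglutaminase 2 (-0.27).

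**Figure D4:**
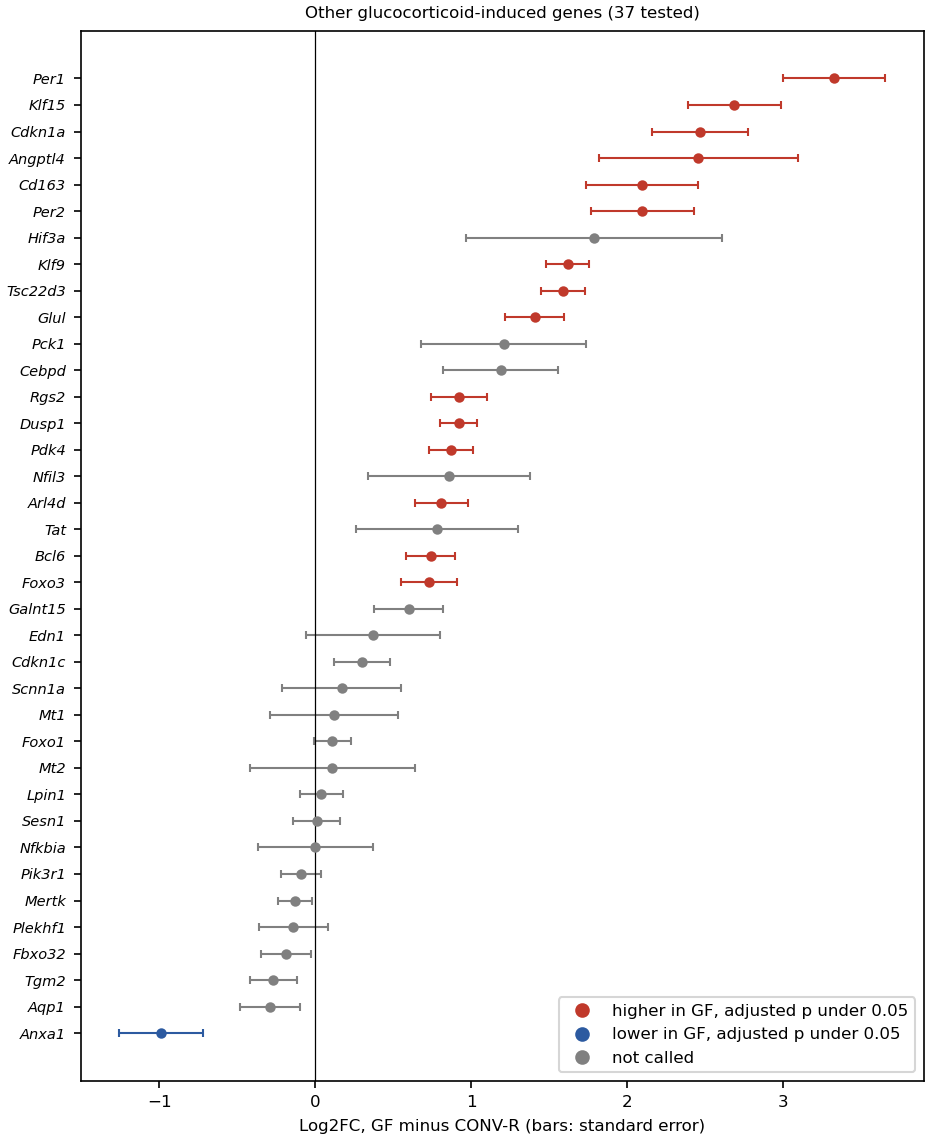
Log2FC of GF minus CONV-R with its standard error for the 37 tested genes of the induced list, in red where higher and blue where lower at an adjusted p under 0.05, and in grey where not called. *Per1* is at 3.33 and *Anxa1*, the only blue point, at -0.99.

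The receptor's chaperones rose in part. Of 12 genes, all tested, 3 rose, 0 fell and 9 did not pass, with a median Log2FC of 0.33. The 3 encode the cytosolic heat shock proteins that fold and hold the receptor. *Hsp90aa1* spanned 21.1 to 32.7 CPM in CONV-R mice and had 63.4, 43.3, 75.9, 35.7 and 50.2 CPM in GF replicates 1, 2, 4, 5 and 6 (Log2FC 1.06, adjusted p = 0.0018, edgeR). *Hspa8* rose by 1.06 (adjusted p = 0.00275, edgeR) and *Hsp90ab1* by 0.88 (adjusted p = 0.0197, edgeR), the latter with overlap and GF replicate 5 at 487 CPM. The call of *Hsp90ab1* was lost without CONV-R replicate 4 (adjusted p = 0.0517, edgeR), GF replicate 1 (0.0583) or GF replicate 4 (0.0546). Among those that did not pass, *Dnaja1* had a Log2FC of 0.41, *Hspa4* of 0.24, *Ppid* of 0.25 and *St13* of 0.10, the last turning to -0.10 without GF replicate 4.

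Heat shock and dissociation genes were examined beside them, since the cells were sorted after enzymatic digestion of the liver. Of 15 listed, 11 were in the table and 9 were tested, of which 2 rose, 0 fell and 7 did not pass, with a median Log2FC of 0.62. *Hspb1*, a small heat shock protein gene, rose by 2.23 (adjusted p = 0.00504, edgeR) and *Btg2*, an immediate early gene, by 0.62 (adjusted p = 0.0112, edgeR). *Egr1*, *Zfp36*, *Dnajb1* and *Fos* had Log2FC values of -0.50, 0.00, 0.35 and 0.81 and did not pass. The value of *Fos* turned to -0.10 without GF replicate 5, that of *Egr1* was -0.97 without GF replicate 6 and that of *Dnajb1* 0.07 without GF replicate 4. *Nr4a1*, another immediate early gene, did not pass with edgeR (Log2FC 1.46, adjusted p = 0.0626) but was called higher in 4 of 17 alternative settings, among them DESeq2 (Log2FC 1.47, adjusted p = 0.0186). The part of cell handling in the higher chaperone levels was not tested.

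*Fkbp4* encodes the co-chaperone that competes with the product of *Fkbp5* on the receptor. Per kilobase, *Fkbp5* was 0.524 ± 0.235 times *Fkbp4* in CONV-R mice (SD, n = 6, range 0.397 to 0.999) and 1.13 ± 1.01 times in GF mice (SD, n = 5, range 0.417 to 2.89), so that the ratio overlapped between groups although *Fkbp5* did not. Without GF replicate 5, the mouse with the ratio of 2.89, the GF mean was 0.695 ± 0.274 (SD, n = 4). *Fkbp4* had 71.9, 40.1, 71.5, 11.4 and 45.8 CPM in GF replicates 1, 2, 4, 5 and 6. It did not pass (Log2FC 0.99, adjusted p = 0.0675, edgeR), but it was called without GF replicate 5 (Log2FC 1.24, adjusted p = 0.00185) and with no filter (adjusted p = 0.00468).

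Of 9 genes of steroid supply and related receptors, 6 were tested, of which 2 rose, 0 fell and 4 did not pass, with a median Log2FC of 0.47. *Abcb1a*, a drug and steroid exporter gene, was at 1.69 ± 1.33 and 5.98 ± 3.1 CPM (Log2FC 1.79, adjusted p = 0.0481, edgeR), a call lost in 9 of 17 alternative settings. *Hsd11b2*, whose product inactivates corticosterone, had 2.06 ± 0.505 and 1.14 ± 1.12 CPM and did not pass (Log2FC -0.87, or -1.55 without GF replicate 5), nor did *H6pd*, which supplies cofactor to the *Hsd11b1* enzyme (Log2FC 0.32), *Abcb1b* (-0.04) or the steroid reductase gene *Srd5a1* (0.61). *Srd5a1* turned to -0.23 without GF replicate 5, and *Abcb1b* to 0.12 without GF replicate 4.

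Of 14 coregulators of the receptor, all tested, 0 rose, 1 fell and 13 did not pass, with a median Log2FC of 0.05. *Nrip1*, a corepressor, was at 307 ± 44.0 and 223 ± 35.2 CPM (Log2FC -0.46, adjusted p = 0.0367, edgeR), and this call was lost in 8 of 17 alternative settings. The coactivator genes *Ncoa3* (0.02), *Crebbp* (0.25) and *Ep300* (0.19) and the corepressor gene *Ncor1* (0.00) did not pass.

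Inflammatory genes that glucocorticoids repress were called in both directions. Of 21 listed, 12 were tested, of which 1 rose, 1 fell and 10 did not pass, with a median Log2FC of -0.39. DESeq2 called 1 higher and 2 lower. *Tnf*, the gene of a central inflammatory cytokine, failed edgeR's filter with 92 counts in CONV-R and 7 in GF libraries. It spanned 0.643 to 2.58 CPM in CONV-R mice and had 0, 0.386, 0.0952, 0.264 and 0 CPM in GF replicates 1, 2, 4, 5 and 6, so that every GF mouse was below every CONV-R mouse. Its Log2FC was -3.2 by DESeq2 (adjusted p = 0.00474) and -3.13 by edgeR with no filter (adjusted p = 0.0197). *Vcam1*, a leukocyte adhesion receptor gene, spanned 125 to 209 CPM in CONV-R mice and had 280, 340, 278, 239 and 277 CPM in GF replicates 1, 2, 4, 5 and 6. It rose by a Log2FC of 0.90 (standard error 0.14, adjusted p = 0.000661, edgeR), with every GF mouse higher. *Csf1*, the macrophage growth factor gene, fell by 0.87 on the log2 scale (adjusted p = 0.0267, edgeR), from 225 ± 85.6 to 123 ± 35.5 CPM, with CONV-R replicate 3 at 388 CPM; the call was lost without GF replicate 1 or 2 (adjusted p = 0.067 and 0.0668, edgeR). *Il1a*, *Irf1*, *Cxcl10* and *Icam1* had Log2FC values of -0.51, -0.26, -0.59 and -0.18 and did not pass. Without CONV-R replicate 3, the Log2FC of *Cxcl10* was -0.04 and that of *Irf1* -0.15.

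**Figure D5:**
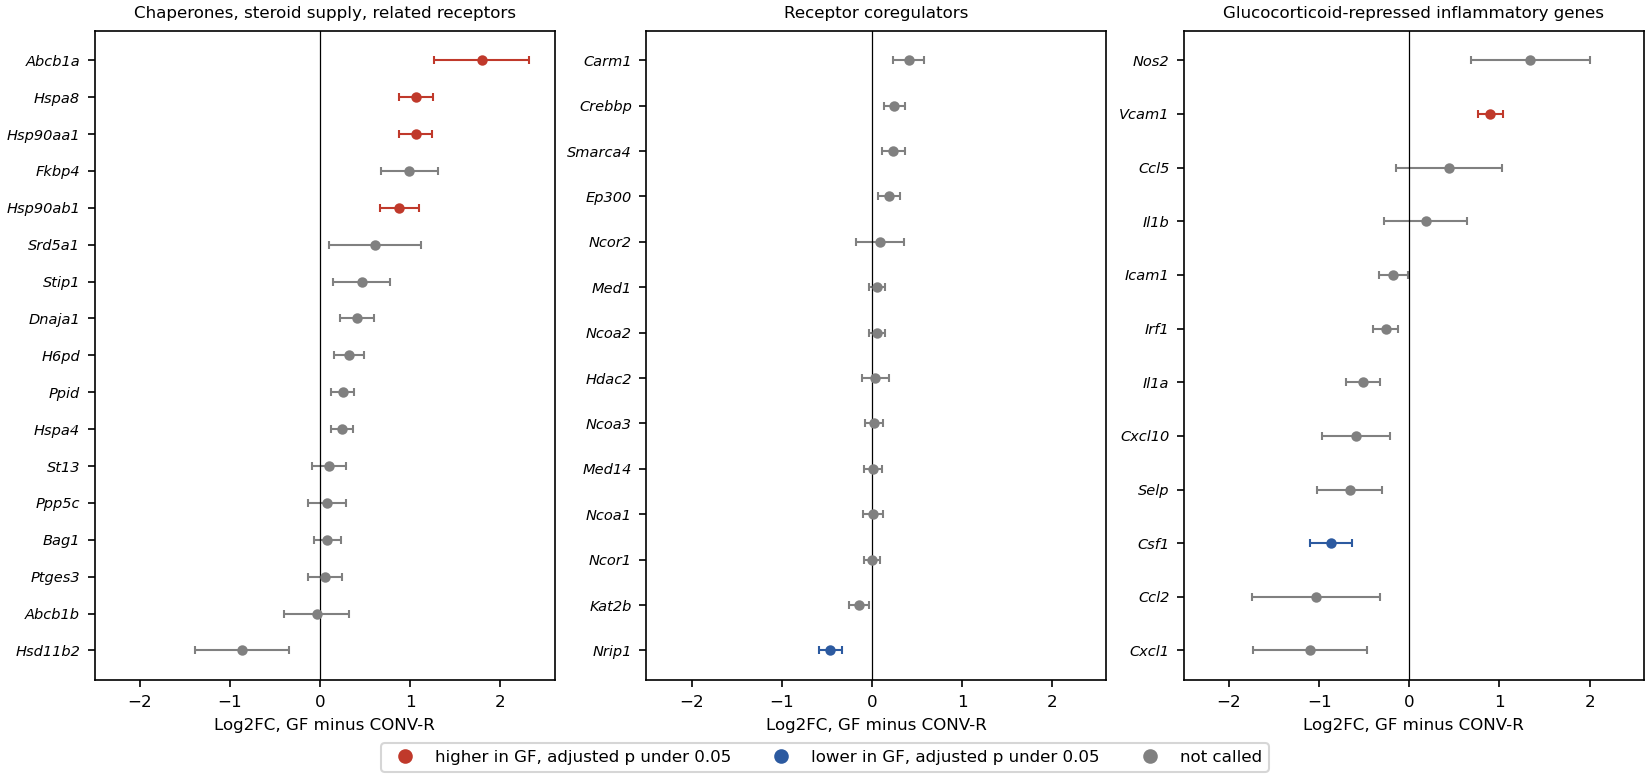
Log2FC of GF minus CONV-R with its standard error for tested genes of the receptor machinery (left and centre) and of the repressed inflammatory list (right), coloured as called higher (red), called lower (blue) or not called (grey). Called genes shown are *Abcb1a*, *Hspa8*, *Hsp90aa1* and *Hsp90ab1* at the left, *Nrip1* in the centre, and *Vcam1* and *Csf1* at the right.

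The core clock without *Per1* and *Per2* was examined because these 2 induced genes are also clock genes. Of 12 genes, all tested, 0 were called by edgeR, 3 had an unadjusted p under 0.05, voom called 0 and DESeq2 called 1, *Ciart*, a clock repressor gene (every GF mouse below every CONV-R mouse, adjusted p = 0.0262). Under other settings edgeR called *Ciart* lower with at least 10 counts in every library (adjusted p = 0.0416), *Nr1d1* higher with the replicate block (adjusted p = 0.0291) and *Hlf* higher without GF replicate 5 (adjusted p = 0.0449). The median Log2FC was -0.02. *Clock* (0.00), *Arntl* (-0.27), *Nr1d1* (0.68) and *Per3* (-0.14) did not pass, and *Arntl* was at -0.12 without CONV-R replicate 3.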

How the data were processed

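RNA of sorted hepatic sinusoidal ECs was sequenced from 6 CONV-R and 5 GF mice, grouped by the labels' treatment entry. The authors trimmed reads, mapped them to GRCm38 (mm10) with STAR, counted them per gene with featureCounts, and deposited raw counts without normalization; annotation release and strand setting are not given in the sources used here, so antisense or overlapping transcripts may share reads. The authors left out 1 further GF library for low mapping. They also deposited values on a log2 scale, normalized across libraries with the DESeq method, used only as an alternative. The labels name a TruSeq RNA preparation, whereas the study's methods give amplification with the Ovation kit.

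Counts were filtered with filterByExpr, scaled by TMM and tested with edgeR 4.0.16's quasi-likelihood test (R 4.3.3), with Benjamini-Hochberg adjustment over 12905 genes and a threshold of 0.05, without covariates. DESeq2 1.42.0 and voom of limma 3.58.1 were alternatives, as were other filters and scalings, a replicate block and each mouse left out. P-values of the group comparisons set the difference between groups against the variation between mice within them. Floors cover counting error only. Log2 CPM used a prior count of 2. Gene positions and merged exon lengths came from GENCODE M21, promoter windows from RefSeq, which held 8 of the 10 genes. Correlations used two-sided exact permutation (scipy 1.17.1). Scripts were tested on simulated data.

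The genes and lists were chosen with earlier results of these data known. Named genes were all 10 genes, up to 8 called genes with the smallest adjusted p and 4 abundant uncalled genes per list, and the nearest genes by profile; *Anxa1*, *Cd163*, *Ciart*, *Hlf*, *Nr4a1*, *Tnf*, *Fkbp4*, *Acnat2* and *Gm35041* were added after their values were seen. *Cebpb*, *Jun*, *Ier2*, *Hspa1a* and *Hspa1b* were not analysed here. A further called gene of the steroid supply list is in the counts but is not named or plotted, and is not reported here.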

Additional observations from a re-analysis of the deposited data

Results flagged for a closer look

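Within a group of 5 or 6 mice, 1 mouse stood far from the others in 15 of 126 values examined (11.9%, with about 1 in 20 given by chance). The values share the same 11 libraries and are not independent, so no excess over chance is read from this share. Among the 10 genes, *Errfi1* was at 18.3 CPM in GF replicate 1 and between 11.5 and 12.6 CPM in the other GF mice, *Ddit4* was at 1.69 CPM in CONV-R replicate 4 against 0.205 to 0.727 CPM, and *Hsd11b1* was at 0.386 CPM (4 counts) in GF replicate 2 against 0 to 0.065 CPM.

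CONV-R replicate 3 held 8 of the 15. It was low in *Hspa4* (135 CPM, against 172 to 183 in the other CONV-R mice), *Ncor1* (507, against 561 to 589), *Crebbp* (415, against 498 to 542) and *Clock* (198, against 300.0 to 348). It was high in *Csf1* (388, against 149 to 229), *Irf1* (165, against 95.5 to 120.0), *Cxcl10* (214, against 39.7 to 66.1) and *Btg2* (57.8, against 35.7 to 42.4).

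The others were *Dnaja1* at 275 CPM in CONV-R replicate 6 (137 to 188 in the other CONV-R mice), *Srd5a1* at 8.46 and *Fos* at 67.2 CPM in GF replicate 5 (1.43 to 2.01 and 4.67 to 22.7 in the other GF mice), and the macrophage marker sum of 931 CPM in GF replicate 6 (197 to 357).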

How the results depend on the processing

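edgeR called 965 genes, DESeq2 1527 (929 higher, 598 lower), and leaving out 1 mouse gave 622 (without GF replicate 6) to 1260 (without GF replicate 5). Of the 16 called induced genes, 13 were called in all 17 alternatives, and leaving out 1 mouse gave 13 to 16. The 6 called genes of the receptor machinery became 3 to 5, with 3 without CONV-R replicate 4. The 2 called repressed genes became 1 without GF replicate 1 or 2, stayed at 2 without each other mouse, and were 4 with no filter on low counts, where 1 rose and 3 fell. Of 160 alternative fold changes of the 9 tested genes described, 155 counted as unchanged. This label covered moves slightly above 1 standard error, as for *Ddit4* without CONV-R replicate 4 (Log2FC 3.43 to 3.97, standard error 0.51). The 5 not counted as unchanged were the authors' normalized values, chosen after seeing the data. They had differences of 1.35 for *Fkbp5*, 4.19 for *Zbtb16*, 2.20 for *Map3k6*, 2.79 for *8430408G22Rik* and 2.08 for *Ddit4*. The cause was not tested. Leaving *Zbtb16* and *Ddit4* out of the correlations, and GF replicate 5 out of the ratio to *Fkbp4*, were also chosen after seeing the data.

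With a replicate block, which leaves out CONV-R replicate 3, 1101 genes, 17 induced genes, 6 machinery genes and 2 repressed genes were called. The same libraries without the block gave 931, 16, 5 and 2. Whether the numbers pair the mice is not settled by these values. The deviations of same-numbered mice correlated at 0.201, 0.0482, -0.0144, 0.024 and 0.0945, and only numbers 1 and 6 matched best with their own. Depth limits *Hsd11b1*, *Zbtb16* and *Ddit4* most, with 26, 9 and 48 counts in all CONV-R libraries.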
